A study of Mus musculus with 24 samples.

Results

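Glucose reaches the hepatocyte cytosol and its glycogen store through a short chain of proteins, and 8 genes of that chain are described here in mouse liver across the circadian day. They are *Slc2a2*, *Gckr*, *Pklr*, *Gys2*, *Pygl*, *Ppp1r3b*, *Ppp1r3c* and *Ppp1r3g*, chosen by gene name from the 54733 genes of the deposited tables. All 8 were found in all 24 libraries. Their level was measured as FPKM, a count of sequenced fragments scaled to transcript length and to library size. A mean of at least 1 FPKM was required for testing, and 11244 genes passed, among them 7 of the 8 members. *Ppp1r3g* did not pass.

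Liver takes up glucose after feeding through a transporter that works in both directions, traps it by phosphorylation, and then either burns it in glycolysis or stores it as glycogen. Glycogen synthase builds the store and glycogen phosphorylase takes it down, and protein phosphatase 1 switches the balance between them by removing phosphate from both enzymes. The phosphatase is brought to the glycogen particle by targeting subunits of the Ppp1r3 family, and the liver clock and the feeding rhythm are both known to set the time of day of several of these genes.

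The livers came from adult male mice of the C57BL/6 strain, either wild type (WT) or homozygous for ΔRRE, a CRISPR-Cas9 deletion of the pair of ROR and REV-ERB response elements of the clock gene *Bmal1*. The mutant animals belonged to 1 of the lines made for the study. Mice had free access to chow and were sampled from the second day in constant darkness, at circadian times (CT, hours of the projected cycle) CT2, CT6, CT10, CT14, CT18 and CT22, with 2 libraries for each genotype and time. Each group thus consists of WT or ΔRRE liver at 1 circadian time with no drug or other treatment, and the comparison asks which rhythms remain when *Bmal1* transcription no longer cycles. The labels give 2 livers per group without an animal identifier, so p-values measure the spread between these samples. RNA came from homogenized liver tissue, so fewer cells of a type and less RNA per cell cannot be told apart.

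*Bmal1* (listed as *Arntl*) matched the labels. Its WT mean ran from 0.143 FPKM at CT10 to 12.9 at CT2, and its ΔRRE means stayed between 2.297 and 3.612. The summed level of 6 hepatocyte markers was 31699 to 49403 FPKM, while the summed markers of skeletal muscle, exocrine pancreas and adipocytes reached at most 0.136, 1.08 and 3.17 FPKM. Both ΔRRE replicate 1 libraries of CT10 and CT14 stood apart. Their 4 erythroid markers summed to 2765 and 2819 FPKM, against 314 to 1260 in the other 22 libraries. Their 16 acute-phase genes summed to 23697 and 25723, the highest of all, against 7832 to 18900 in the others. The value of 18900 was that of ΔRRE CT10 replicate 2, above every WT library (at most 14651). Calls and differences that changed most without both libraries that stood apart are therefore given with and without them. That alternative was chosen after the data were seen.

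Promoter sequence was available for 6 of the 8 members from RefSeq (GRCm38.p6). *Gys2* and *Ppp1r3b* had no entry. In the 250 bases before each start, both strands were searched for the E-box CACGTG, the REV-ERB and ROR element TAGGTCA, the D-box forms TTATGTAA and TTACGTAA, the cyclic AMP element TGACGTCA and the carbohydrate response element, a pair of E-box-like arms with a fixed gap. These 3 windows held a match. *Ppp1r3c* is shown for its wide rhythm in both genotypes, and both *Pklr* starts because the FPKM joins their transcripts. The capitals mark the match, and each run reads 5′ to 3′ on the strand of the gene.

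*Ppp1r3c*, chr19:36736605-36736854, minus strand, E-box: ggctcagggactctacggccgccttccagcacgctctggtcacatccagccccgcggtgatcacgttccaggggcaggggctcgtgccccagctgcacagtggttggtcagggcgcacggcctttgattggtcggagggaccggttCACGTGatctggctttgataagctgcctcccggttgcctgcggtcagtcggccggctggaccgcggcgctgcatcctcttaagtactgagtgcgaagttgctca
*Pklr*, downstream start, chr3:89136373-89136622, plus strand, carbohydrate response element: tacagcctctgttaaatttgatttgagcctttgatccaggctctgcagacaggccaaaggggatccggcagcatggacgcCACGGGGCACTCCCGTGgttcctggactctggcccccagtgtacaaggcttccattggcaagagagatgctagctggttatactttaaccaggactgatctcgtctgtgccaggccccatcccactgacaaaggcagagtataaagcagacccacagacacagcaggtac
*Pklr*, upstream start, chr3:89135892-89136141, plus strand, REV-ERB and ROR element on the opposite strand: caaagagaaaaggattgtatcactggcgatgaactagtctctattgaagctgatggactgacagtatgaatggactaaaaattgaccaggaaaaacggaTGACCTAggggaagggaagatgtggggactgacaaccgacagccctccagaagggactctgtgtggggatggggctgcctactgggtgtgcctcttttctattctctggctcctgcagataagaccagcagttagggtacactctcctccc

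The E-box of *Ppp1r3c* lies at positions -104 to -99 from the start, and an E-box was present in 6.02% of all 32851 promoters of this length. The carbohydrate response element of *Pklr*, at positions -170 to -154, is rarer. It was found in 0.387% of the promoters. The REV-ERB and ROR element at the upstream *Pklr* start was found in 2.23%. The *Slc2a2*, *Gckr*, *Pygl* and *Ppp1r3g* windows held none of the motifs. A match is a run of letters only, and binding was not measured here.

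The members spanned a wide range of levels. *Pygl* was the most abundant, with a mean of 137 FPKM over the 24 libraries. *Ppp1r3b* (67.7), *Pklr* (65.7), *Gys2* (65.0) and *Gckr* (64.7 FPKM) followed at means that could not be ordered, since each stood above the next in only 10 to 15 of the 24 libraries. *Slc2a2* came next at 45.1 and *Ppp1r3c* at 30.6 FPKM, with *Slc2a2* the higher in 16 of 24 libraries. *Ppp1r3g* had a mean of 0.179 FPKM. The plot of the members by time shows that the daily range within a gene was often wider than the difference between genes.

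**Figure D1:**
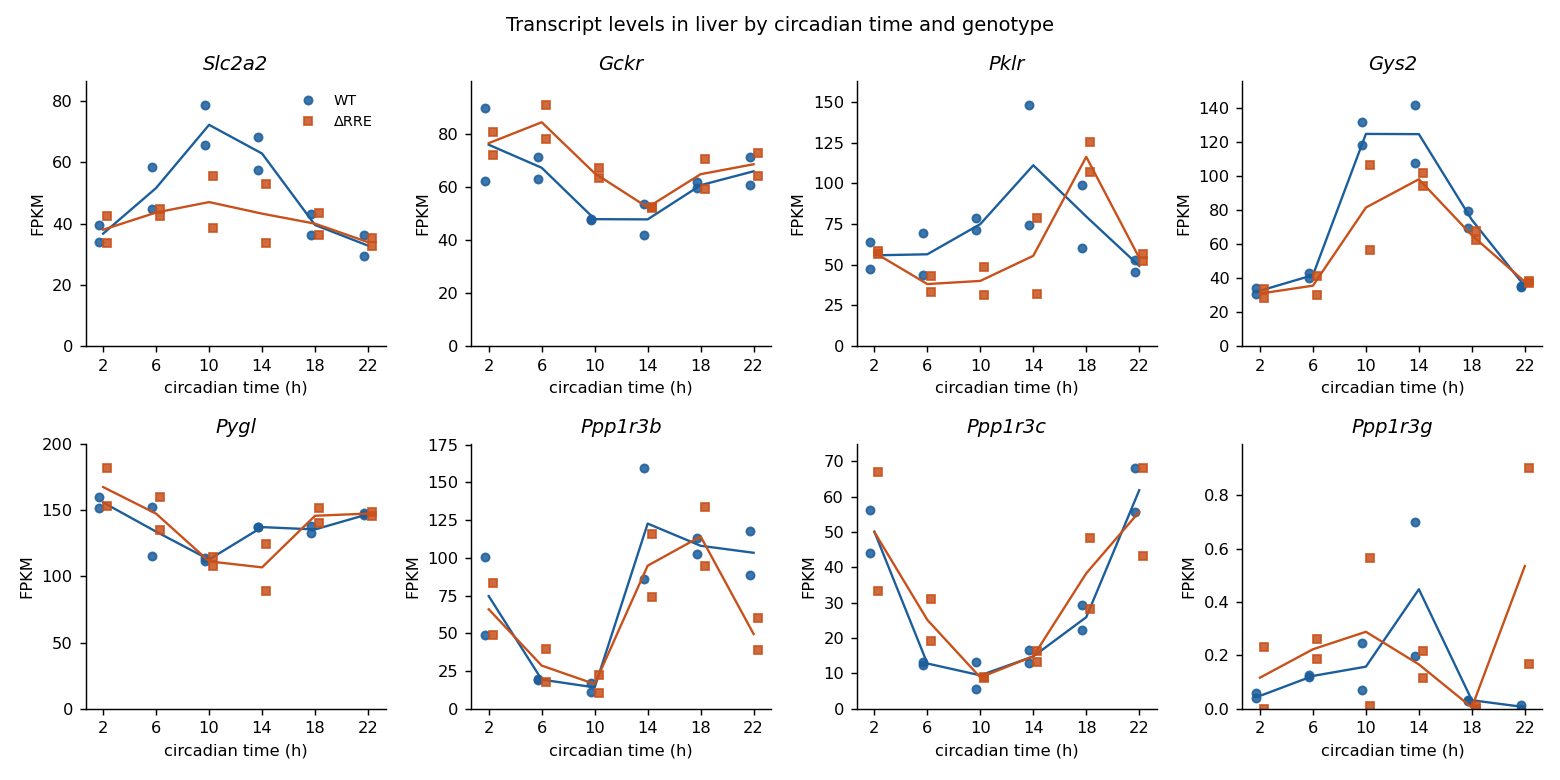
FPKM (vertical axis, from 0, scaled per gene) against circadian time in hours for the 8 members. Blue circles are WT libraries and orange squares ΔRRE libraries, 2 per time and genotype, and lines join the means. *Slc2a2* rises to 78.7 FPKM in WT and to 55.4 in ΔRRE, *Pklr* is highest at CT14 in WT and at CT18 in ΔRRE, and *Gys2*, *Ppp1r3b* and *Ppp1r3c* rise and fall in both genotypes.

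Rhythm was tested by fitting a 24-h cosine and sine to log2(FPKM + 0.1) with limma and adjusting over all 11244 genes. In WT, 5 of the 7 tested members were called at an adjusted p under 0.05 (*Slc2a2*, *Gckr*, *Gys2*, *Ppp1r3b* and *Ppp1r3c*), where 10.3% of all genes were. In ΔRRE, 2 of 7 were called (*Gys2* and *Ppp1r3c*), where 4.57% of all genes were. With all 24 libraries in 1 model with a shared wave, 6 of 7 were called, all but *Pklr*, against 30.6% of all genes. Leaving out both libraries that stood apart gave 2 of 7 in ΔRRE, where 1.55% of all genes were called, and 7 of 7 over the remaining libraries, where 26.8% were. A call in WT without one in ΔRRE does not by itself show a difference. The test of the difference in rhythm called 0 of 7 members, where 0.00889% of all genes (1 gene) were called, and the adjusted p was 0.9999 for each member. At an unadjusted level of 0.05 limma put 2 of the 7 members on that side, *Slc2a2* and *Pklr*, and 2.84% of all genes.

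The median fitted amplitude, the distance from the fitted mean to the peak on the log2 scale, was 0.42 over the 7 tested members and 0.17 over all genes when all libraries were used. It was 0.58 against 0.20 in WT and 0.61 against 0.19 in ΔRRE. The members' median fell on *Slc2a2* in WT and on *Pklr*, whose rhythm was not called, in ΔRRE. These medians therefore do not compare the same gene. Taken gene by gene, the median amplitude difference, ΔRRE minus WT, was -0.13 over the members and -0.0099 over all genes.

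**Figure D2:**
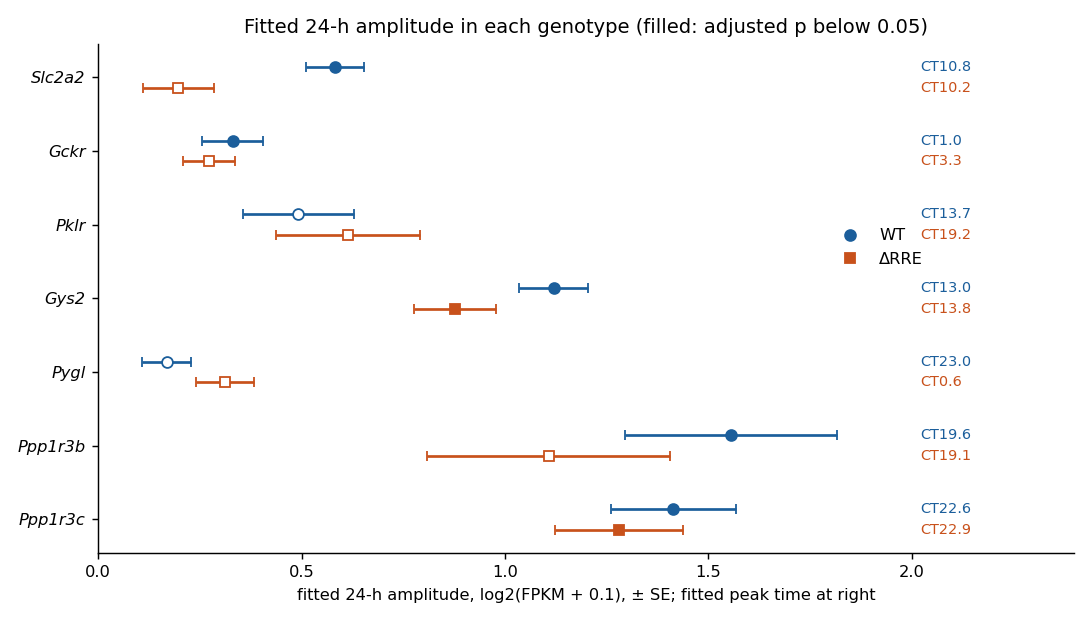
Fitted 24-h amplitude on the log2(FPKM + 0.1) scale (horizontal axis, ± SE of the limma fit, 12 libraries per genotype) for the 7 tested members, with WT as blue circles and ΔRRE as orange squares. Filled symbols passed an adjusted p of 0.05, and the fitted peak times stand at the right. *Ppp1r3b* and *Ppp1r3c* have the widest swings in both genotypes, and *Slc2a2* falls from 0.58 in WT to 0.20 in ΔRRE.

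*Slc2a2* (chromosome 3, 28697903 to 28731359 in mm10, plus strand) encodes GLUT2, the main glucose transporter of hepatocytes. Its level rose in the second part of the subjective day in WT and varied less in ΔRRE. *Slc2a2* in WT was 39.5 and 34.0 FPKM at CT2, 58.5 and 44.7 at CT6, 78.7 and 65.8 at CT10, 68.2 and 57.5 at CT14, 36.1 and 43.0 at CT18, and 36.2 and 29.4 at CT22. *Slc2a2* in ΔRRE was 42.3 and 33.7 at CT2, 42.4 and 44.8 at CT6, 38.6 and 55.4 at CT10, 33.7 and 52.8 at CT14, 43.6 and 36.3 at CT18, and 35.2 and 32.7 at CT22. Both WT libraries stood above both ΔRRE libraries at CT10 and CT14, and the genotypes overlapped at the other 4 times.

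The fitted *Slc2a2* amplitude was 0.58 ± 0.07 (SE) in WT with a peak at CT10.8 (adjusted p = 0.00113), a 2.24-fold swing from trough to peak. In ΔRRE it was 0.20 ± 0.09 with a peak at CT10.2 (adjusted p = 0.331), a 1.32-fold swing. The amplitude difference, ΔRRE minus WT, was -0.38 ± 0.11 with similar peak times. An exact permutation test of the genotype labels within time points gave a two-sided p = 0.0356 for the difference in rhythm, where 4.29e-05 is the smallest possible. The 2 lowest ΔRRE values of CT10 and CT14, 38.6 and 33.7 FPKM, came from the libraries with the high erythroid and acute-phase sums. Without them the amplitude in ΔRRE was 0.34 (adjusted p = 0.0715) and the exact permutation p was 0.150. The contribution of these libraries' state was not tested further.

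*Gckr* (chromosome 5, 31297443 to 31327314, plus strand) encodes the regulatory protein that holds glucokinase inactive in the nucleus when glucose is low. Its highest time mean was 1.59 times the lowest in WT and 1.61 times in ΔRRE. It was lowest at CT10 and CT14 in WT and at CT14 in ΔRRE. *Gckr* in WT was 89.7 and 62.1 FPKM at CT2, 63.2 and 71.3 at CT6, 48.1 and 47.6 at CT10, 53.7 and 41.8 at CT14, 59.5 and 61.8 at CT18, and 71.1 and 60.7 at CT22. *Gckr* in ΔRRE was 80.9 and 72.1 at CT2, 90.8 and 77.9 at CT6, 67.0 and 63.2 at CT10, 52.5 and 52.0 at CT14, 70.5 and 59.1 at CT18, and 73.0 and 64.1 at CT22. ΔRRE stood above WT without overlap at CT6 and CT10, and the ΔRRE mean was the higher at all 6 times.

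The *Gckr* amplitude was 0.33 ± 0.07 in WT (peak CT1.0, adjusted p = 0.0331) and 0.27 ± 0.06 in ΔRRE (peak CT3.3, adjusted p = 0.0607). Over all libraries it was 0.29 ± 0.05 with a peak at CT2.0 (adjusted p = 6.35e-04). The WT call was lost when any 1 of 5 WT libraries was left out, with adjusted p = 0.0921 without CT2 replicate 1, 0.0658 without CT10 replicate 1, 0.0725 without CT10 replicate 2, 0.0979 without CT14 replicate 2 and 0.0645 without CT22 replicate 1. It was also lost without the filter on low values (0.0992), with a prior without trend (0.0552) and with the 6 time points as separate terms (adjusted p = 0.216). In ΔRRE the *Gckr* rhythm was called without CT18 replicate 1 (adjusted p = 0.0332). It was not called without both libraries that stood apart (adjusted p = 0.189).

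*Pklr* (chromosome 3, 89136142 to 89146784, plus strand) encodes pyruvate kinase of liver and red blood cells, the last enzyme of glycolysis. It has separate erythroid and liver first exons, and the FPKM does not tell these transcripts apart. Its exons overlap those of *Hcn3* on the opposite strand, which was at a mean of 3.16 FPKM. *Pklr* in WT was 47.4 and 64.1 FPKM at CT2, 43.5 and 69.3 at CT6, 78.8 and 71.1 at CT10, 148 and 74.2 at CT14, 60.02 and 99.2 at CT18, and 45.8 and 52.8 at CT22. *Pklr* in ΔRRE was 56.5 and 58.4 at CT2, 33.0 and 43.2 at CT6, 31.6 and 48.4 at CT10, 32.1 and 78.8 at CT14, 125 and 107 at CT18, and 56.3 and 52.1 at CT22. ΔRRE stood below WT without overlap at CT6 and CT10 and above it at CT18. At CT14 both genotypes spread widely.

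The fitted *Pklr* peak was CT13.7 in WT and CT19.2 in ΔRRE, 5.46 h later, with amplitudes of 0.49 ± 0.14 (adjusted p = 0.0787) and 0.61 ± 0.18 (adjusted p = 0.125). Neither rhythm passed the adjusted threshold, so these peak times describe a wave that was not called. The exact permutation test of the difference in rhythm gave a two-sided p = 0.01325. The ΔRRE libraries with the high erythroid sums held 31.6 FPKM at CT10 and 32.1 at CT14, the lowest values of all 24. Without them the ΔRRE peak was CT17.3, the exact permutation p was 0.0491, and the rhythm over the remaining libraries was called with a peak at CT15.6 (adjusted p = 0.00532). Over all 24 libraries the adjusted p was 0.0581. It fell under 0.05 on leaving out WT CT6 replicate 2 (0.0459), WT CT18 replicate 1 (0.0390), WT CT22 replicate 1 (0.0447), ΔRRE CT2 replicate 2 (0.0485) or ΔRRE CT14 replicate 1 (0.0118), and also on rescaling all 24 libraries to a common median ratio (adjusted p = 0.0381).

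*Gys2* (chromosome 6, 142422613 to 142473109, minus strand), the liver glycogen synthase, gave the lowest adjusted p for a rhythm among the members. *Gys2* in WT was 34.2 and 30.7 FPKM at CT2, 40.2 and 43.1 at CT6, 118 and 131 at CT10, 141 and 107 at CT14, 69.1 and 79.1 at CT18, and 35.4 and 34.8 at CT22. *Gys2* in ΔRRE was 33.2 and 28.4 at CT2, 40.9 and 30.0 at CT6, 106 and 56.5 at CT10, 102 and 94.2 at CT14, 67.6 and 62.5 at CT18, and 38.3 and 37.2 at CT22. Levels were high from CT10 to CT18 in both genotypes. ΔRRE stood below WT without overlap at CT10, CT14 and CT18, and slightly above it at CT22.

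The *Gys2* amplitude was 1.12 ± 0.08 in WT (peak CT13.0, adjusted p = 8.77e-05) and 0.88 ± 0.10 in ΔRRE (peak CT13.8, adjusted p = 0.00173), swings of 4.72-fold and 3.38-fold. Over all libraries the adjusted p was 8.55e-09. The exact permutation p of the difference in rhythm was 0.0742, two-sided, and 0.0523 without the libraries that stood apart.

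*Pygl* (chromosome 12, 70190811 to 70231488, minus strand), the liver glycogen phosphorylase, was the most abundant member. Its fitted amplitude was the smallest of the 7 in WT and over all libraries but not in ΔRRE, where *Slc2a2* and *Gckr* had smaller ones. *Pygl* in WT was 151 and 160.1 FPKM at CT2, 115 and 152 at CT6, 114 and 111 at CT10, 137 and 137 at CT14, 133 and 138 at CT18, and 146 and 147 at CT22. *Pygl* in ΔRRE was 153 and 182 at CT2, 135 and 159.6 at CT6, 108 and 114 at CT10, 89.2 and 124 at CT14, 140.2 and 151 at CT18, and 146 and 149 at CT22. Its lowest levels fell at CT10 in WT and at CT10 and CT14 in ΔRRE. ΔRRE stood below WT without overlap at CT14 and above it at CT18.

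The *Pygl* amplitude was 0.17 ± 0.06 in WT (adjusted p = 0.170) and 0.31 ± 0.07 in ΔRRE (adjusted p = 0.0580), and 0.24 ± 0.05 over all libraries with a peak close to CT0 (adjusted p = 0.00228). The lowest value, 89.2 FPKM, belonged to the ΔRRE CT14 library with the highest acute-phase sum. Without both libraries that stood apart the ΔRRE amplitude was 0.21 (adjusted p = 0.249). The exact permutation p of the difference in rhythm was 0.155, and 0.408 without them.

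Because FPKM is per length, synthase and phosphorylase transcripts can be set against each other within a library. The *Gys2* to *Pygl* ratio was 0.226 and 0.192 at CT2 in WT and reached 1.03 and 1.18 at CT10. In ΔRRE it was 0.217 and 0.156 at CT2, 0.982 and 0.494 at CT10, and 1.14 and 0.757 at CT14. Transcripts of the 2 enzymes were therefore near parity from CT10 to CT14 in WT, and phosphorylase transcripts outnumbered synthase transcripts in every library of CT2, CT6, CT18 and CT22. The ratio describes transcripts and not enzyme activity.

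**Figure D3:**
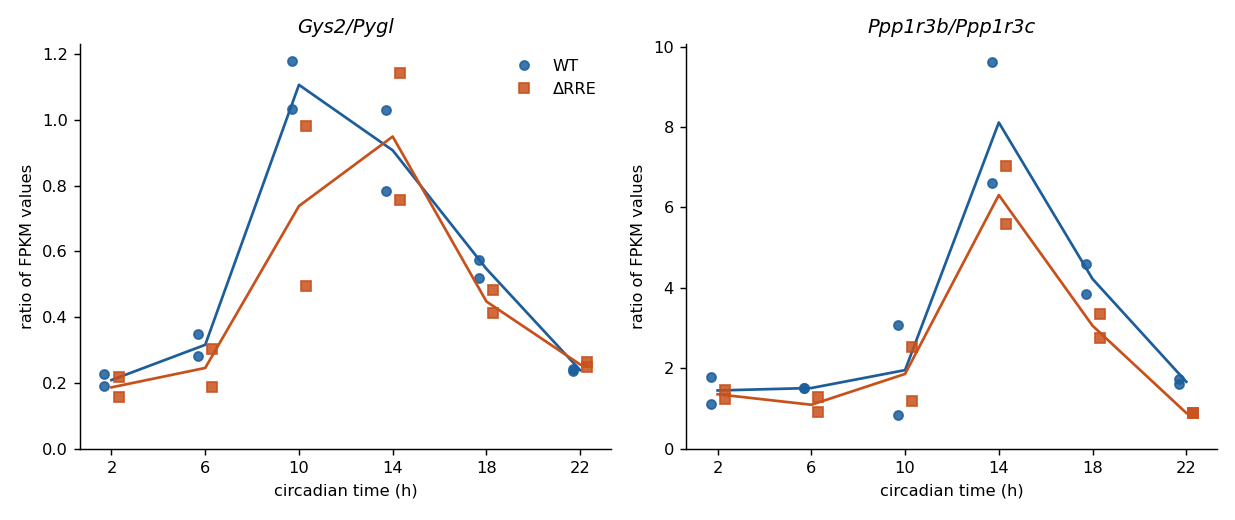
Ratio of FPKM values within each library (vertical axes, from 0) against circadian time in hours, for *Gys2* over *Pygl* on the left and *Ppp1r3b* over *Ppp1r3c* on the right. Blue circles are WT and orange squares ΔRRE libraries, with lines through the means of 2. The left ratio is highest at CT10 and CT14, and the right ratio at CT14, where it reached 9.63 in WT and 7.02 in ΔRRE.

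*Ppp1r3b* (chromosome 8, 35375739 to 35388139, plus strand) encodes GL, the main glycogen-targeting subunit of protein phosphatase 1 in liver. It was lowest at CT6 and CT10 in both genotypes. Mean levels were several times higher from CT14 through CT22 to CT2 in WT, and at CT14 and CT18 in ΔRRE. The ΔRRE means at CT22 and CT2 were 49.6 and 66.0 FPKM, against 28.6 at CT6 and 16.4 at CT10. *Ppp1r3b* in WT was 49.0 and 100.3 FPKM at CT2, 18.9 and 19.8 at CT6, 11.2 and 17.2 at CT10, 85.8 and 159.7 at CT14, 113 and 103 at CT18, and 89.0 and 118 at CT22. *Ppp1r3b* in ΔRRE was 48.7 and 83.2 at CT2, 17.5 and 39.8 at CT6, 10.8 and 22.1 at CT10, 74.0 and 116 at CT14, 134 and 94.8 at CT18, and 60.4 and 38.7 at CT22. The genotypes overlapped at 5 of the 6 times. At CT22 both ΔRRE libraries lay below both WT libraries.

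The *Ppp1r3b* amplitude was 1.55 ± 0.26 in WT (peak CT19.6, adjusted p = 0.00766) and 1.11 ± 0.30 in ΔRRE (peak CT19.1, adjusted p = 0.0985). Over all libraries it was 1.33 ± 0.21 (adjusted p = 2.09e-04). Without the libraries that stood apart the ΔRRE amplitude was 0.91 (adjusted p = 0.200). The 2 replicates of this gene differed by up to 2.28 times at 1 time point, and the exact permutation p of the difference in rhythm was 0.294, and 0.0998 without the libraries that stood apart. When the 6 time points replaced the cosine wave in the model, the ΔRRE rhythm was called (adjusted p = 0.0414), and without the filter on low values the WT call was lost (adjusted p = 0.0599).

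*Ppp1r3c* (chromosome 19, 36731731 to 36736653, minus strand) encodes PTG, another subunit that brings the phosphatase, glycogen synthase and phosphorylase together on glycogen. It was highest late in the subjective night and early in the subjective day. *Ppp1r3c* in WT was 44.0 and 56.2 FPKM at CT2, 12.5 and 13.1 at CT6, 13.3 and 5.59 at CT10, 13.0 and 16.6 at CT14, 29.5 and 22.3 at CT18, and 55.5 and 68.1 at CT22. *Ppp1r3c* in ΔRRE was 33.2 and 66.8 at CT2, 19.1 and 31.2 at CT6, 9.03 and 8.72 at CT10, 13.2 and 16.5 at CT14, 48.4 and 28.2 at CT18, and 68.1 and 43.3 at CT22. The genotypes overlapped everywhere but at CT6, where ΔRRE was the higher.

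The *Ppp1r3c* amplitude was 1.41 ± 0.15 in WT (peak CT22.6, adjusted p = 6.39e-04) and 1.28 ± 0.16 in ΔRRE (peak CT22.9, adjusted p = 0.00245), swings of 7.10-fold and 5.91-fold. The exact permutation p of the difference in rhythm was 0.794. *Ppp1r3c* peaked about when *Bmal1* did in WT (CT22.8). *Ppp1r3c* kept a called rhythm in ΔRRE, where the fitted *Bmal1* amplitude was 0.29 (adjusted p = 0.156). So did *Nr1d1* (*Rev-erbα*), *Dbp* and *Per2*, which the study names as E-box-controlled (limma adjusted p = 1.86e-04, 0.00173 and 0.0013). Over all libraries these genes peaked at CT7.8, CT10.9 and CT15.6. Whether the E-box in the *Ppp1r3c* promoter window bears on its timing was not tested.

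The 2 abundant subunits were offset. *Ppp1r3b* transcripts were 6.60 and 9.63 times those of *Ppp1r3c* at CT14 in WT and 1.60 and 1.73 times at CT22. In ΔRRE the ratio was 5.59 and 7.02 at CT14 and 0.887 and 0.894 at CT22. At CT22 *Ppp1r3b* was thus the more abundant in both WT libraries and *Ppp1r3c* in both ΔRRE libraries, a difference that was not tested.

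*Ppp1r3g* (chromosome 13, 35958839 to 35970388, plus strand), a further subunit of the Ppp1r3 family, was close to 0 throughout. *Ppp1r3g* in WT was 0.0574 and 0.0392 FPKM at CT2, 0.118 and 0.128 at CT6, 0.245 and 0.0705 at CT10, 0.699 and 0.196 at CT14, 0.0301 and 0.0340 at CT18, and 0 and 0.0124 at CT22. *Ppp1r3g* in ΔRRE was 0.233 and 0 at CT2, 0.260 and 0.185 at CT6, 0.565 and 0.0115 at CT10, 0.217 and 0.116 at CT14, 0 and 0.01 at CT18, and 0.167 and 0.902 at CT22. It was listed at 0 in 3 libraries, and single libraries set its high values. Its mean lay under the filter of 1 FPKM, so it was left out of the main tests. Fitted without that filter, its rhythm was not called in WT (amplitude 0.86, limma adjusted p = 0.199) or in ΔRRE (0.32, adjusted p = 0.957).

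Mean level over the day was compared with time point as a factor. The test called 0 of 7 members and 0% of all genes (limma, smallest adjusted p over all genes 0.332), while 3 of 7 members and 8.91% of all genes fell under an unadjusted 0.05. *Gys2* was lower in ΔRRE, at -0.24 ± 0.10 (SE) on the log2 scale (adjusted p = 0.472), with a lower ΔRRE mean at 5 of 6 times and an exact permutation p of 0.0118. *Gckr* was higher in ΔRRE, at 0.18 ± 0.07 (adjusted p = 0.445), at 6 of 6 times, with an exact permutation p of 0.0191. *Slc2a2* was lower in ΔRRE, at -0.22 ± 0.10 (adjusted p = 0.537), with an exact permutation p of 0.0532. Without the libraries that stood apart these exact permutation p-values were 0.0115, 0.0413 and 0.150, and the *Slc2a2* difference was -0.10. The median level difference over all genes was 0.037, so ΔRRE values were slightly higher in general. With all 24 libraries rescaled to a common median ratio, the *Gckr* difference was 0.14 (limma adjusted p = 0.744). The *Gys2* difference was then -0.28 (0.608) and the *Slc2a2* difference -0.26 (0.621).

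The other 4 members had level differences, ΔRRE minus WT, of -0.29 ± 0.19 (*Pklr*), -0.15 ± 0.20 (*Ppp1r3b*), 0.21 ± 0.16 (*Ppp1r3c*) and -0.01 ± 0.07 (*Pygl*). Their exact permutation p-values ran from 0.184 to 0.928. Without the libraries that stood apart the *Pklr* difference was -0.083 and the *Ppp1r3b* difference -0.053. Leaving out 1 library moved *Pklr* to -0.17 (without ΔRRE CT14 replicate 1), *Ppp1r3b* to -0.058 (without ΔRRE CT22 replicate 2), *Ppp1r3c* to 0.12 (without ΔRRE CT6 replicate 2) and *Gys2* to -0.16 (without ΔRRE CT10 replicate 2). Counting each gene at each time, the genotypes did not overlap in 15 of 42 cases among the tested members, or 35.7%, against 31.2% over all genes and times.

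**Figure D4:**
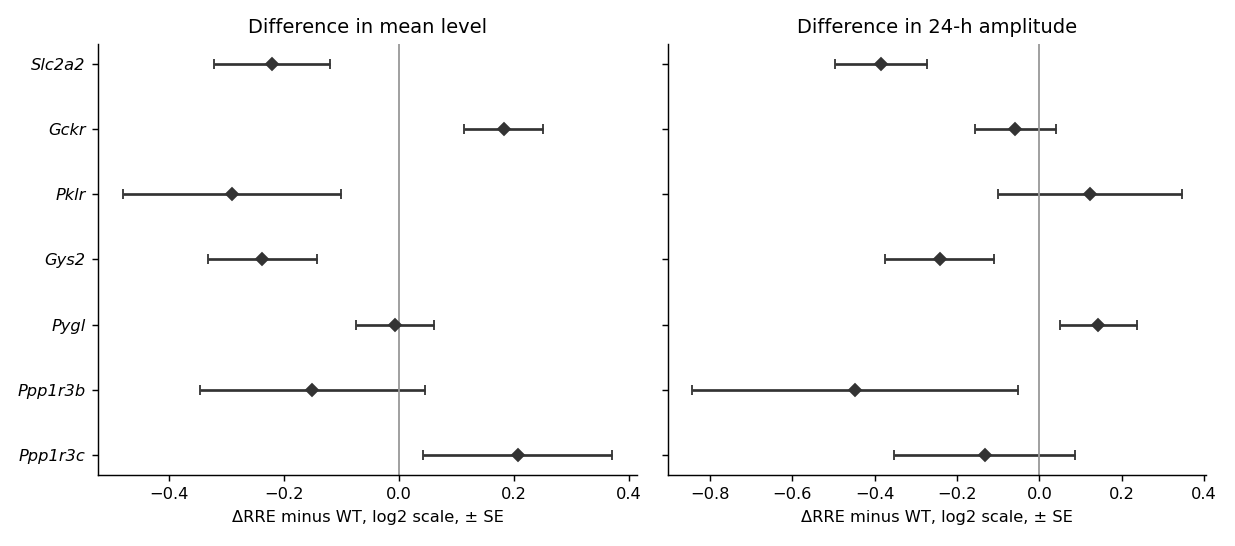
ΔRRE minus WT difference on the log2(FPKM + 0.1) scale, ± SE, in mean level (left) and fitted 24-h amplitude (right) for the 7 tested members. The left SE is that of the limma fit over 24 libraries. The right SE combines those of the separate WT and ΔRRE fits, with 12 libraries each. The vertical line marks no difference. *Gckr* lies above 0 and *Gys2* and *Slc2a2* below it on the left, *Slc2a2* lies farthest from 0 relative to its SE on the right, and no member passed an adjusted p of 0.05 in either comparison.

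The study's own criteria for a rhythm combine a lenient p under 0.3, a highest time mean over 1.5 times the lowest, and a bound on the replicate SD. With the harmonic p in place of the program used there, 6 of 7 members met them in WT (all but *Pygl*, 37% of all genes) and 6 of 7 in ΔRRE (all but *Slc2a2*, 35.4% of all genes). Without the libraries that stood apart 6 of 7 met them in ΔRRE as well, with *Slc2a2* now among them and *Pygl* not.

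A wider list of 64 genes of glucose uptake, glycolysis, glycogen and their regulators was examined beside the members, of which 47 were tested. Over all libraries 20 of the 47 were called rhythmic (30.6% of all genes), 11 of them with a peak between CT0 and CT12 and 9 between CT12 and CT24. In WT 11 were called, beside 10.3% of all genes, and in ΔRRE 3 (*Pfkfb1*, *Pfkfb3* and *Eno1*), beside 4.57% of all genes. None of the 47 differed in rhythm or level at an adjusted p of 0.05 (limma), and 5 and 6 fell under an unadjusted 0.05, as did 2.84% and 8.91% of all genes. Their median amplitude was 0.21, against 0.17 over all genes.

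The 8 genes of that list with the lowest adjusted p covered each step. Among the enzymes that make and remove fructose 2,6-bisphosphate, the activator of phosphofructokinase, *Pfkfb3* had an amplitude of 1.29 and a peak at CT14.0 (adjusted p = 1.37e-04). *Pfkfb2* peaked at CT13.5 with 0.41 and *Pfkfb1* at CT17.2 with 0.44. Of the transporters, *Slc2a5*, which carries fructose, had an amplitude of 0.81 (CT8.6) and *Slc2a9*, which carries urate, 0.30 (CT9.2). On the glycogen side *Phka2*, the liver regulatory subunit of phosphorylase kinase, had 0.45 (CT5.0), the targeting subunit *Ppp1r3e* 0.50 (CT17.6), and *Ppp1ca*, a catalytic subunit of protein phosphatase 1, 0.21 (CT3.7).

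**Figure D5:**
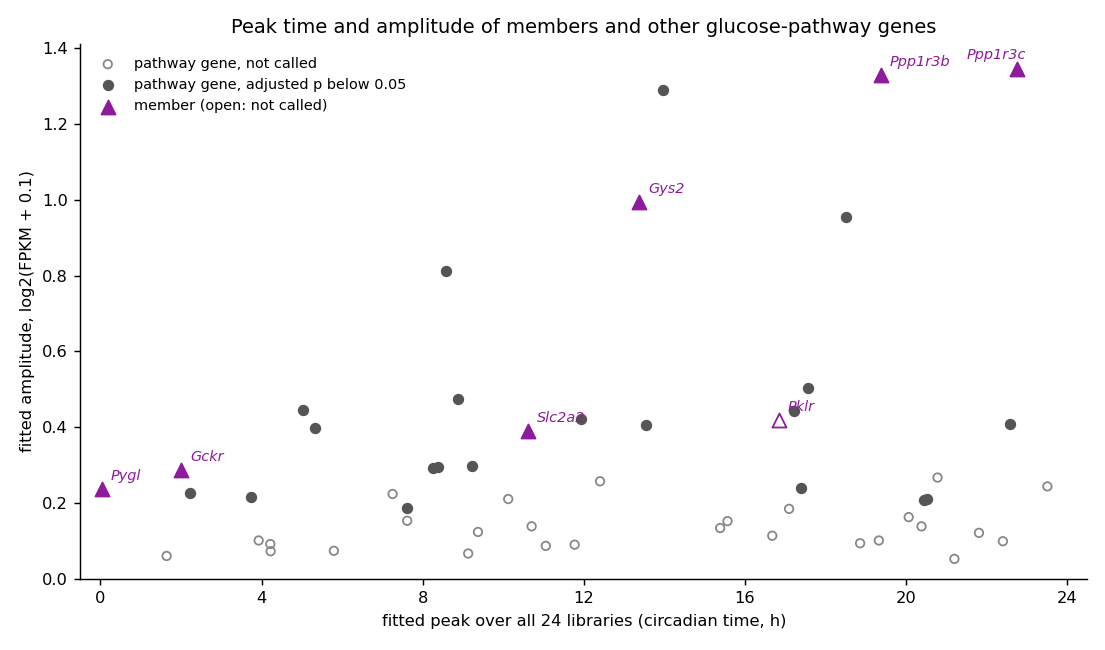
Fitted peak (horizontal axis, circadian time in hours) and amplitude (vertical axis, log2 scale) over all 24 libraries for the 7 tested members (purple triangles) and 47 other genes of the list (grey circles, filled where the adjusted p was under 0.05). *Ppp1r3b*, *Ppp1r3c* and *Gys2* lie among the largest amplitudes, together with *Pfkfb3* at 1.29, and *Pygl* and *Gckr* lie lower and peak between CT0 and CT4.

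The members did not move together. Across the 24 libraries, which share the same time course, Pearson's r on the log2 scale was -0.75 between *Gys2* and *Gckr*, -0.71 between *Gys2* and *Ppp1r3c*, -0.69 between *Gys2* and *Pygl*, 0.75 between *Pygl* and *Ppp1r3c*, and 0.60 between *Gys2* and *Slc2a2*. Among the genes most like each rhythmic member over the same libraries were *Wee1* and *Coq10b* for *Gys2* (r = 0.922 and 0.921), *Lgalsl* and *Chka* for *Ppp1r3c* (0.936 and 0.926), and *Chst13*, *Hexim1* and *Skil* for *Ppp1r3b* (0.904 each). For *Pygl* they were *Adipor2*, *Rnf144b* and *Mreg* (0.897, 0.852 and 0.841), and for *Gckr* *Sqstm1*, *Mcu* and *Slc22a15* (0.860, 0.856 and 0.825). *Slc2a2* was followed by *Rdh9*, *1810058I24Rik* and *Ugp2* (0.845, 0.795 and 0.778). *Ugp2*, which makes the UDP-glucose used by glycogen synthase, correlated with *Slc2a2* at 0.907 over the 12 WT libraries and 0.667 over the 12 ΔRRE libraries.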

How the data were processed

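The authors prepared poly(A) RNA libraries with a strand-marking kit from WT and ΔRRE livers and deposited 1 table of FPKM per library, without pooling replicates. The submitters' processing notes name Trimmomatic 0.39, HISAT2 2.1.0, StringTie 1.3.5 and mm10. Whether strand was used in counting is not given in the sources used here. A series-wide table that repeats these values was not used. FPKM summed to 554170 to 624746 per library. Counts per gene were not used, so no counting error is given and depth is unknown.

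Here log2(FPKM + 0.1) was fitted with limma 3.58.1 in R 4.3.3 (trended prior, Benjamini-Hochberg adjustment) for the genes whose mean reached 1 FPKM, so fold changes of low genes are understated. The code was tested on simulated data. BIO_CYCLE, used by the study, was not run. Exact permutation tests relabelled genotype within time points in all 23328 distinct ways and were two-sided. Their p-values were not adjusted over the members. Groups follow the labels. Members and gene lists were chosen with earlier results of these data known. Text names all members, up to 8 list genes with the lowest adjusted p, list genes called in ΔRRE, and the 3 genes most correlated with each member called over all libraries, of which 2 are not reported here. *Hcn3* and the libraries left out were chosen after values were seen. Gene positions are from GENCODE M21, promoters from RefSeq. Python 3.11.15 and matplotlib 3.10.9 were used. Alternatives changed the constant, filter, scaling, prior, time model, block and libraries.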

Additional observations from a re-analysis of the deposited data

Results flagged for a closer look

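The rhythm of 2 members differed between genotypes by the exact permutation test of the difference itself, taken singly. For *Pklr* the two-sided p was 0.01325 over 24 libraries, with fitted peaks at CT13.7 in WT and CT19.2 in ΔRRE. For *Slc2a2* it was 0.0356, with amplitudes of 0.58 in WT and 0.20 in ΔRRE. Neither passed limma's adjustment over all 11244 genes (adjusted p = 0.9999 for both), and 7 members were tested in this way. Without the ΔRRE libraries of CT10 and CT14 that were highest in erythroid and acute-phase transcripts, the exact permutation p was 0.0491 for *Pklr* and 0.150 for *Slc2a2*. Groups of 2 are too small to look for single libraries far from the others.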

How the results depend on the processing

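The number of members called rhythmic in WT was 5 and fell to 3 of 8 without a filter on low values, where 28380 genes shared the adjustment. It was 4 with a prior without trend and 4 with time points as separate terms, both without *Gckr*. In ΔRRE the number was 2 and rose to 4 with the replicate number as a block and to 4 in 1 fit of all libraries with a shared spread, with *Gckr* and *Pygl* added in both. The labels do not say that replicate numbers pair the samples. Deviations of replicate 1 from its group mean correlated between groups at -0.138 to 0.305 (median 0.0669), above 0.1 in 20 of 66 pairs of groups. These weak correlations cannot decide whether replicates of 1 number share a batch. The blocked fit was not used for the main results and is given here only. Leaving out 1 library at a time gave 4 to 5 members in WT, 2 to 3 in ΔRRE, 6 to 7 over all libraries, while the study's criteria gave 5 to 6 in WT and 5 to 7 in ΔRRE. Differences in rhythm and in level stayed at 0 members under every alternative run. On leaving out 1 library the *Pygl* level difference ran from -0.040 to 0.043, and it was 0.052 without the 2 libraries that stood apart, so its direction is not settled. The *Pklr* amplitude difference ran from -0.0046 (without ΔRRE CT18 replicate 1) to 0.27. The causes were not tested. With 2 libraries per group and no counts, the spread at any single time rests on 1 difference.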
